A study of Mus musculus with 6 samples.

Results

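The cytosolic ribosomal protein genes were read in aortas of miRNA-26b-/- and miRNA-26b+/+ mice. They were chosen by symbol alone, as the rows named Rpl or Rps with a number and an optional a, x or y suffix, plus Rplp0, Rplp1, Rplp2 and Rpsa, with names marked -ps dropped. This gave 79 genes of 55341 rows in the count table, 33 of the small (40S) subunit and 46 of the large (60S) subunit. Fau, whose product is a fusion with a ubiquitin-like part, is left out by this rule, as are later-named paralogues such as Rpl22l1. A filter on low counts passed 77 of the 79, leaving out Rps3a2 and Rps3a3, 2 loci that GENCODE annotates as processed pseudogenes and that the choice by symbol had kept, which stayed between 0.298 and 1.64 CPM (counts scaled to 1e+06 per library, with library sizes adjusted by the trimmed mean of M values, TMM) in the 6 libraries.

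RNA came from 3 miRNA-26b-/- and 3 miRNA-26b+/+ mice aged 8 weeks on a normal diet, 1 library per mouse, labelled as strain C57BL/6NCrl. The paper describes the founding strains as mixed between 129/Sv and C57BL/6, and places the mice it used on C57BL/6. In the knockout the miRNA-26b gene, which lies in an intron of the phosphatase gene Ctdsp1, had been flanked by loxP sites in R1/E (129/Sv) embryonic stem cells and deleted with tamoxifen-induced CreERT2, and the Cre was then bred out. The deletion is thus not restricted to a cell type. The libraries are called knockout 1 to 3 (M2626, M2627 and M2628) and wild-type 1 to 3 (M2629, M2630 and M2631), numbers that name libraries and pair none. Totals ran from 25706728 counts in knockout 1 to 33345037 in knockout 2. The row of the deleted miRNA held 20 counts in wild-type 2 and 0 in the other 5 libraries, which polyA-selected libraries cannot resolve further. The host gene Ctdsp1 ran from 182 to 201 CPM in knockouts and from 148 to 180 CPM in wild types. Its log2 fold change was 0.20 ± 0.15 (SE), with an adjusted p of 0.866 by edgeR's quasi-likelihood test. By real time PCR, the paper reports that the knockout lacked both mature products of the miRNA and that Ctdsp1 was not deregulated. The labels name aortic endothelial cells while the methods describe the explanted arch and thoracic aorta. Here 10 smooth muscle markers summed to between 36524 and 49083 CPM and 9 fibroblast markers to between 11769 and 21726 CPM. The 12 endothelial markers summed to between 741 and 2449 CPM and 6 white fat markers to between 631 and 2521 CPM. Brown fat markers summed to between 161 and 503 CPM and cardiac muscle markers to between 126 and 459 CPM. The values are thus those of the whole explant, vessel wall with some fat and cardiac muscle RNA, whose part in the members' values was not tested. In bulk tissue, fewer cells of a type and less RNA per cell cannot be told apart.

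The ribosome's small subunit decodes the mRNA and the large subunit joins amino acids, and each holds a single copy of most of its proteins, so that cells make them in matched amounts. Their mRNAs are short, abundant and stable, and start with a cytosine followed by a run of pyrimidines, the 5′ terminal oligopyrimidine (TOP) tract, through which mTORC1 and the RNA-binding protein LARP1 control their translation. Their transcripts are therefore often read as a module, with the level of the mRNA set apart from the rate at which it is translated, which RNA-seq does not measure.

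The tract is shown for 9 of the members described below, as 30 bases around the RefSeq start site (GRCm38.p6), 15 before it and 15 from it on, with the pyrimidine run from the first transcribed base in capitals. They were picked from the members that have the tract at that base, to show what it looks like.
Rps6, chr4:86857353-86857382, minus strand: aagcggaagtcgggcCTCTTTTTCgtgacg
Rps27, chr3:90213634-90213663, minus strand: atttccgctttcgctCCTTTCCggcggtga
Rps21, chr2:180257364-180257393, plus strand: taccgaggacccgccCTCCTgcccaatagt
Rps10, chr17:27635230-27635259, minus strand: gcgccgcgcacgcccCTTCCTTTCCagcct
Rps18, chr17:33955651-33955680, minus strand: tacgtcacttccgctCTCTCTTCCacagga
Rpl38, chr11:114668565-114668594, plus strand: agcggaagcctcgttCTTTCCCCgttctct
Rpl15, chr14:18270972-18271001, minus strand: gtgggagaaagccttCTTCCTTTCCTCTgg
Rpl35a, chr16:33056467-33056496, plus strand: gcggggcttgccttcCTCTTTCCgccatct
Rplp2, chr7:141447636-141447665, plus strand: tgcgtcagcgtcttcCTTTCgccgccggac

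Run lengths in these 9 ranged from 5 bases in Rps21 and Rplp2 to 13 in Rpl15. Of the members, 57 had a RefSeq start in the promoter table, and 13 of these (22.8%) started with a C followed by at least 4 pyrimidines at the annotated base, against 3.01% of 27025 genes in the same table. Where any GENCODE transcript start of a gene was allowed, 34 of 79 members (43.0%) held the tract, against 9.67% of 16017 genes tested. An annotated start that lies a few bases off the used start hides the tract, so no match says only that these letters are not at that base.

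The letters CCGGAAG, the core bound by ETS factors, stood on either strand within 250 bases before and 50 after 25 of 67 member starts (37.3%), against 8.86% of 32851 starts of all genes. AAGATGG, the core of the YY1 motif, stood at 11 member starts (16.4%) against 6.34%. TATAAA, the TATA box, went the other way, at 6 member starts (8.96%) against 13.6%. These are matches of letters and not measured binding. The background takes in all genes of the promoter table, also those not tested here, and was not matched for level or base composition.

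The deleted miRNA was set beside the members' own transcripts. The mature mmu-miR-26b-5p lies at chr1:74394324-74394344 on the plus strand (GRCm38.p6), and its seed, bases 2 to 8, is in capitals.
mmu-miR-26b-5p: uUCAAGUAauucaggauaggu
The match to this seed, TACTTGA, was present in the annotated 3′ UTR of 2 of the 77 members tested, Rpl37 and Rps20, against 10.6% of 13432 genes tested that had such a UTR. Both matches were followed by A, giving the longer TACTTGAA. Member 3′ UTRs were short, with a median of 69 bases against 1052 over all genes tested, and the Rps20 transcript with the match had an annotated UTR of 3167 bases. Rpl37, a 60S protein, had a log2 fold change of 0.03 ± 0.17 (SE) and Rps20, a 40S protein, of -0.09 ± 0.16, with adjusted p of 0.991 and 0.965 from edgeR's quasi-likelihood test over all genes tested. In neither was a difference beyond the spread of the libraries detected. Matches to the other mature strand of this miRNA, which the deletion also removes, were not searched.

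Summed over the members, the module took a similar share of each library except 1. The 79 genes held 1.38%, 1.31% and 1.41% of all counts in wild-type 1, 2 and 3, 1.34% in knockout 2 and 1.34% in knockout 3, and 1.75% in knockout 1. The Wilson 95% interval was 1.74% to 1.75% for knockout 1 and 1.41% to 1.42% for wild-type 3, the next highest, and it covers counting error only. The intervals of wild-type 1 (1.38% to 1.39%) and wild-type 2 (1.30% to 1.31%) were also apart from these and from each other. The interval alone thus does not set knockout 1 apart. By the shares themselves knockout 1 was the highest library, while knockout 2 and 3 lay inside the wild-type range.

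The mean share was 1.47% ± 0.24 (SD, n = 3) in knockouts and 1.37% ± 0.05 (SD, n = 3) in wild types, a ratio of 1.08. Without knockout 1 the knockout mean was 1.34% and the ratio 0.977. The difference between genotypes in the summed share was smaller than the spread among the knockouts and turned direction with 1 library.

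**Figure D1:**
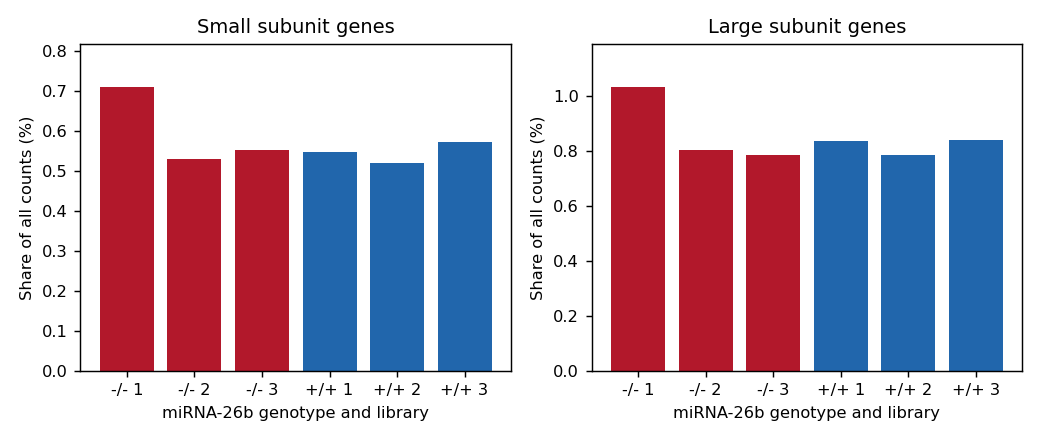
Share of all counts (%) held by the small subunit genes (left) and the large subunit genes (right) in each library, red for the 3 miRNA-26b-/- and blue for the 3 miRNA-26b+/+ libraries, with 1 bar per library. Knockout 1 is highest in both panels, at 0.711% and 1.04%, and the other 5 libraries lie between 0.520% and 0.572% and between 0.785% and 0.840%.

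The subunits moved together in knockout 1. The small subunit genes took 0.711% of its counts against 0.547% ± 0.03 (SD, n = 3) in wild types, 1.30 times as much, and the large subunit genes 1.04% against 0.821% ± 0.03 (SD, n = 3), 1.26 times as much. The ratio of small to large subunit counts ran from 0.661 to 0.702 in knockouts and from 0.656 to 0.681 in wild types, so these ranges overlapped and knockout 1, at 0.687, lay between the other knockouts. With counts scaled per kb of exon, the ratio was highest in knockout 1, at 0.665. It was 0.628 and 0.649 in knockouts 2 and 3 and ran from 0.620 to 0.655 in wild types. The place of knockout 1 in this ratio thus depended on the measure.

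Knockout 1 had the highest value of the 6 libraries for 68 of 77 members (88.3%), 28 of 31 in the small subunit and 40 of 46 in the large, while it was the highest library for 18.6% of all genes tested. Relative to the wild-type mean, members in knockout 1 had a median log2 difference of 0.35, with a range from -0.24 to 0.81, and 11 of 77 exceeded 1.5-fold. The tested members with the largest ratio of knockout 1 to the mean of the other 5 libraries were Rps27, a zinc-finger protein of the 40S subunit, at 1.71, Rps7 at 1.61 and Rpl30 at 1.61. Rps27 read 237 CPM in knockout 1, 132 and 149 CPM in knockouts 2 and 3, and 117, 130 and 163 CPM in the wild types, so only 1 knockout stood above the wild-type range.

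The 9 members that were not highest in knockout 1 were Rps6, Rps12, Rps16, Rpl10a, Rpl27, Rpl35, Rpl37a, Rpl39 and Rplp0. They included Rps6, the 40S protein phosphorylated by S6 kinase downstream of mTORC1, which read 143, 132 and 119 CPM in knockouts and 136, 103 and 151 CPM in wild types. Rplp0, the base of the stalk that recruits translation factors to the 60S subunit, read 479, 435 and 433 CPM in knockouts and 488, 451 and 470 CPM in wild types. In both genes the groups overlapped.

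**Figure D2:**
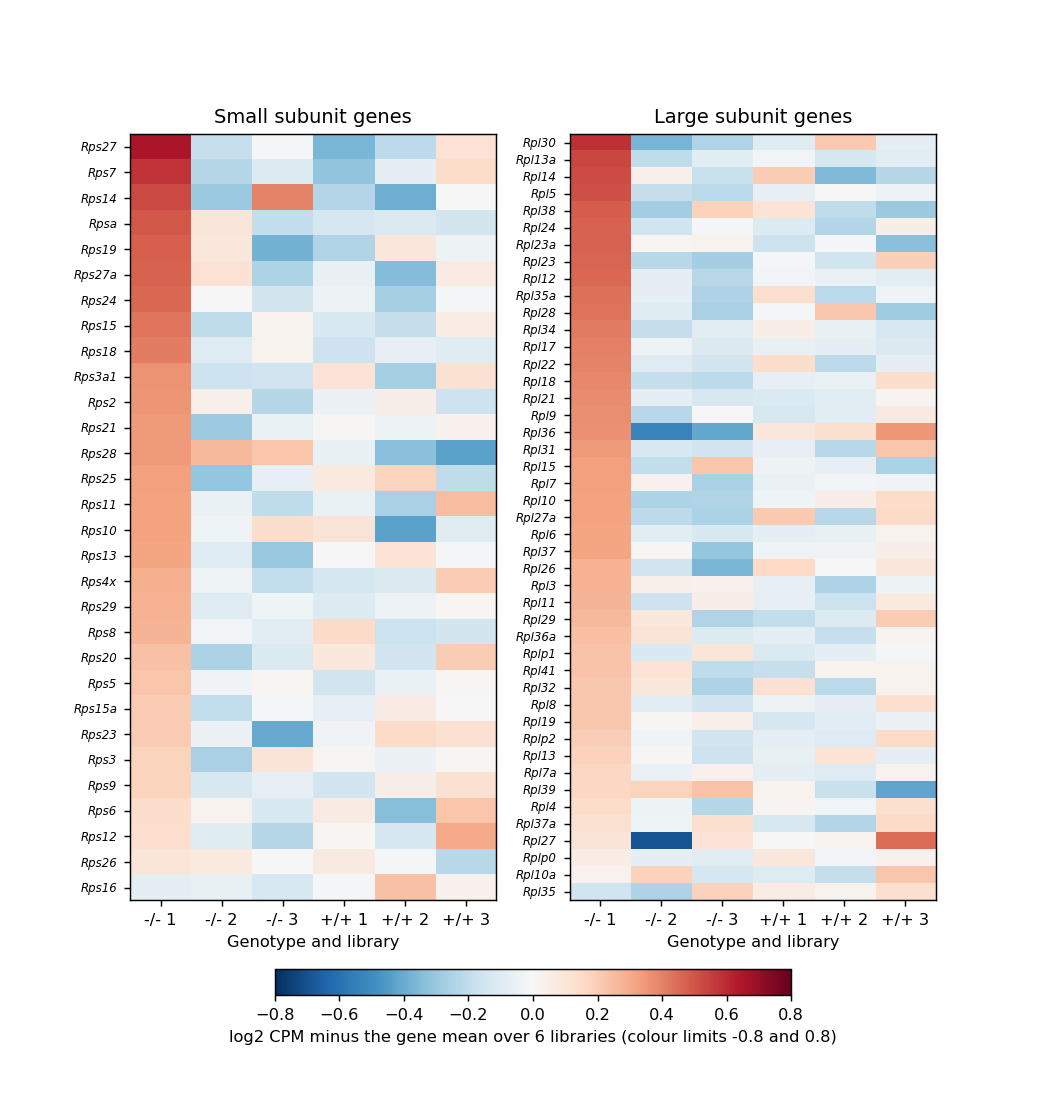
Heat map of 75 of the 77 tested members in the 6 libraries, small subunit left and large subunit right, as log2 CPM minus the mean of that gene over the 6 libraries, with genes ordered by their value in knockout 1. The column of knockout 1 is red in nearly all genes, with a median over all tested members of 0.32 in each subunit. The other 5 columns have medians between -0.15 and 0.03.

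The module varied less than other genes of at least 30 CPM, a set not matched for level, in the wild types and between knockouts 2 and 3. Over the 77 members the median SD of log2 CPM was 0.13 in the wild types, against 0.18 for 5769 such genes. Between knockouts 2 and 3 it was 0.11 against 0.18, and over all 3 knockouts it was 0.28 against 0.22, so members went from tighter than other genes to wider with knockout 1. These are descriptions over genes that share libraries, not tests.

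Several other readings moved with knockout 1, and their part in the members' level was not tested. Members are short, with a median principal transcript of 827 bases against 3395 for other genes of at least 30 CPM, and the 257 other genes of up to 1000 bases had a median log2 deviation of 0.16 in knockout 1, against -0.08 for the 2257 genes over 4000 bases. The same short genes stood at 0.07 in knockout 2 and -0.14 in knockout 3, where members stood at -0.09 and -0.12. The 12 endothelial markers summed to 741 CPM in knockout 1 and 781 CPM in knockout 2, against 1768 to 2449 CPM in the other 4 libraries, with none at 0 in all libraries, and the 6 erythroid markers to 930 CPM in knockout 1 against 85.7 to 634 CPM in the others. The 8 macrophage markers summed to 329 CPM in knockout 1 against 404 to 943 CPM in the others, and the 9 fibroblast markers to 11769 CPM against 12744 to 21726 CPM, with 8 of the 9 lowest in knockout 1.

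Tested gene by gene, no ribosomal protein gene passed an adjusted p of 0.05 by edgeR's quasi-likelihood test, and 2 of 77 (2.60%) passed an unadjusted p of 0.05, Rps28 and Rps14, both higher in the knockout. Of all 16017 genes tested, 6.46% passed that unadjusted threshold, 3.4% higher and 3.07% lower in the knockout, and 0.00624%, a single gene outside the module, passed the adjusted one. That last count was 57 by DESeq2, 19 by edgeR's likelihood ratio test and 82 without knockout 3, with 0 members in each. The members' share of calls lay under that background. DESeq2 also called 2 of 77 at an unadjusted p under 0.05, the same 2 genes, beside 5.24% of all genes, and gave a smallest adjusted p of 0.612 among members. Adjusted p of the 77 members ran from 0.736 to 0.997 in edgeR, with standard errors of the log2 fold change between 0.13 and 0.25. Between the same groups the 8 Schwann cell markers summed to 133 to 208 CPM in knockouts and 45.6 to 94.2 CPM in wild types, with 6 of 7 tested under an unadjusted p of 0.05. The 9 skeletal muscle markers summed to 8.58 to 113 CPM against 3.90 to 15.5 CPM, with 7 of 9 under that threshold, and the 8 sympathetic neuron markers to 11.4 to 289 CPM against 11.3 to 59.3 CPM, with 4 of 7 tested, and all these calls were higher in the knockout. Knockout 2 was the highest library in 8 of the 9 muscle and 7 of the 7 neuron markers tested. The 12 endothelial markers went the other way, with 11 below 0 and a median log2 fold change of -0.56. Of them, 2 were under an unadjusted p of 0.05 by edgeR, both lower in the knockout. The part of these lists in the members' values was not tested.

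Rps28, a small protein near the mRNA exit side of the 40S subunit (ENSMUSG00000067288, chr17:33819027-33824562), had the largest fold change among members. It read 41.9, 39.7 and 38.7 CPM in knockouts and 31.9, 26.3 and 24.6 CPM in wild types. All 3 knockouts lay above all 3 wild types, and knockout 1 did not stand out. The log2 fold change was 0.54 ± 0.22 (SE), with an unadjusted p of 0.028 and an adjusted p of 0.736 by edgeR, and without knockout 1 it was 0.50 with an unadjusted p of 0.0629. Its exons overlap those of Kank3, whose own values were 6.60, 12.3 and 5.46 CPM in knockouts and 4.96, 9.44 and 6.59 CPM in wild types, and since the library kit does not mark strand, reads in the overlap cannot be assigned to 1 gene.

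Rps14, a platform protein of the 40S subunit known from the 5q- syndrome (ENSMUSG00000024608), followed another pattern. It read 508, 287 and 464 CPM in knockouts and 299, 269 and 352 CPM in wild types. Knockouts 1 and 3 were above all wild types while knockout 2 lay within their range. The log2 fold change was 0.45 ± 0.19 (SE), with an unadjusted p of 0.0325 and an adjusted p of 0.740 by edgeR, and without knockout 1 it was 0.29 with an unadjusted p of 0.170.

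Of the other small subunit genes with the smallest p, Rpsa, the 40S protein also known as the laminin receptor precursor, read 429, 324 and 266 CPM in knockouts and 277, 280 and 274 CPM in wild types. The wild types were nearly equal and the knockouts spread over both sides of them. Its log2 fold change was 0.29 ± 0.16 (SE) with an adjusted p of 0.805 by edgeR. It was 0.09 without knockout 1 and 0.44 without knockout 3, with an unadjusted p of 0.00872 in the latter fit.
Rps18, a protein of the 40S head, had 154, 108 and 118 CPM in knockouts and 103, 111 and 108 CPM in wild types. Knockouts 1 and 3 lay above all wild types and knockout 2 within their range.

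In the large subunit, where none of 46 genes passed an unadjusted p of 0.05, the smallest p belonged to Rpl23a, a protein at the exit of the peptide tunnel. It read 178, 130 and 131 CPM in knockouts and 115, 127 and 102 CPM in wild types, with a log2 fold change of 0.35 ± 0.17 (SE) and an adjusted p of 0.769 by edgeR. Rpl39, a small X-linked protein lining the same tunnel, read 40.4, 40.8 and 42.3 CPM in knockouts and 36.8, 31.8 and 27.0 CPM in wild types. Rpl3, which reaches to the peptidyl transferase centre, read 364, 310 and 308 CPM against 288, 254 and 293 CPM. These 3 genes had no overlap between groups, and of them only Rpl39, at 0.37 with all libraries and 0.38 without knockout 1, kept the size of its fold change, with adjusted p of 0.813 by edgeR in the full comparison.

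Rpl15, another 60S protein, had 120, 83.1 and 111 CPM in knockouts against 92.5, 91.1 and 80.0 CPM in wild types, with overlap between the groups. Across the module the groups did not overlap in 5 of 77 genes with the knockout higher, Rps28, Rpl3, Rpl19, Rpl23a and Rpl39 (6.49%), and in 1 with the knockout lower, Rps16 (1.30%). Over all genes tested these shares were 5.65% and 5.88%, so the first was near the background and the second under it.

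Rpl36, a 60S protein, had the lowest fold change of the members. It read 94.6, 50.9 and 55.2 CPM in knockouts and 78.2, 80.2 and 93.4 CPM in wild types, so that knockouts 2 and 3 lay under all wild types and knockout 1 above them. The log2 fold change was -0.34 ± 0.22 (SE) with an adjusted p of 0.852 by edgeR. Without knockout 1 it was -0.67 with an unadjusted p of 0.00480, and Rpl36 was then the 1 member of 77 (1.30%) under the threshold, while 5.76% of all genes passed in either direction. No member passed an adjusted p of 0.05 in that fit, where the smallest was 0.795.

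**Figure D3:**
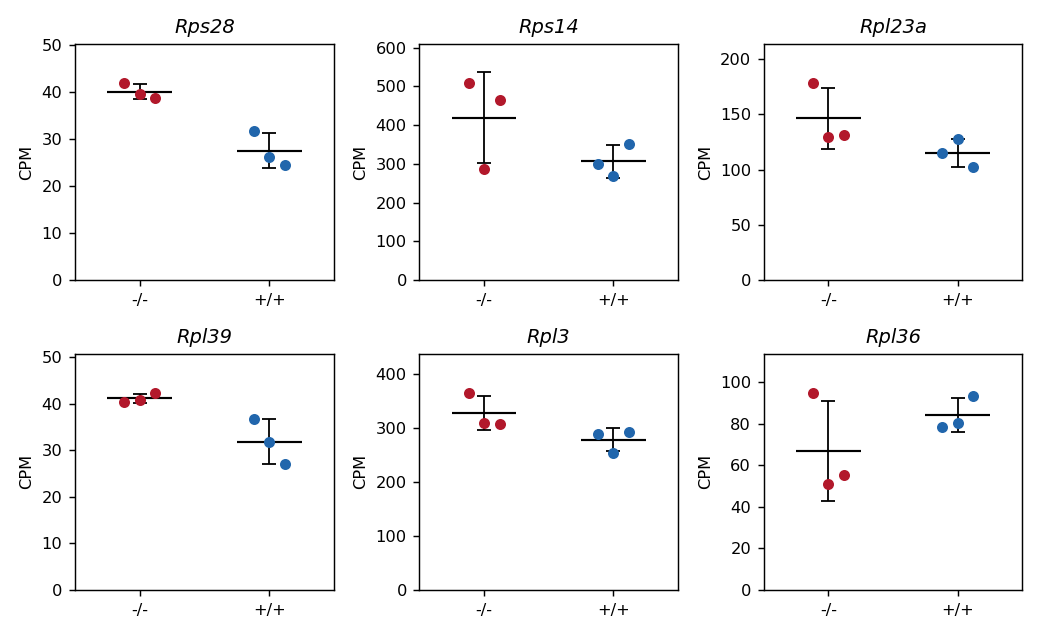
CPM of 6 members in the 3 miRNA-26b-/- (red) and 3 miRNA-26b+/+ (blue) libraries, shown as points in library order, with the group mean as a line and the SD as the error bar. Rps28, Rpl23a, Rpl39 and Rpl3 have no overlap between groups, Rps14 has knockout 2 inside the wild-type range, and Rpl36 has knockout 1 above and knockouts 2 and 3 below the wild types.

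The direction of the module as a whole rested on knockout 1. The median log2 fold change was 0.11 over 31 small subunit genes and 0.09 over 46 large subunit genes, with 24 and 37 above 0, beside a median of 0.01 over all genes tested. Without knockout 1 the medians were -0.05 and -0.07, with 11 and 16 genes above 0, beside 0.00 over all genes. The mean of knockouts 2 and 3 lay below the wild-type mean in 20 of 31 small and 30 of 46 large subunit genes. Neither subunit thus had a direction that held in the knockouts without that library.

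Leaving out knockout 3 had the opposite effect. The medians became 0.15 and 0.17, and 7 of 77 members (9.09%) passed an unadjusted p of 0.05, all higher in the knockout, among them Rps24, Rps27a, Rps28, Rpsa, Rpl14 and Rpl23a. In the same fit 10.8% of 15654 genes passed in either direction, 788 of them higher and 904 lower in the knockout. The smallest adjusted p among members was 0.230. The members' share did not exceed the background of both directions together. Counted by direction, their share of higher calls was above that of all genes, and 0 members were called lower. No test over the members was made.

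**Figure D4:**
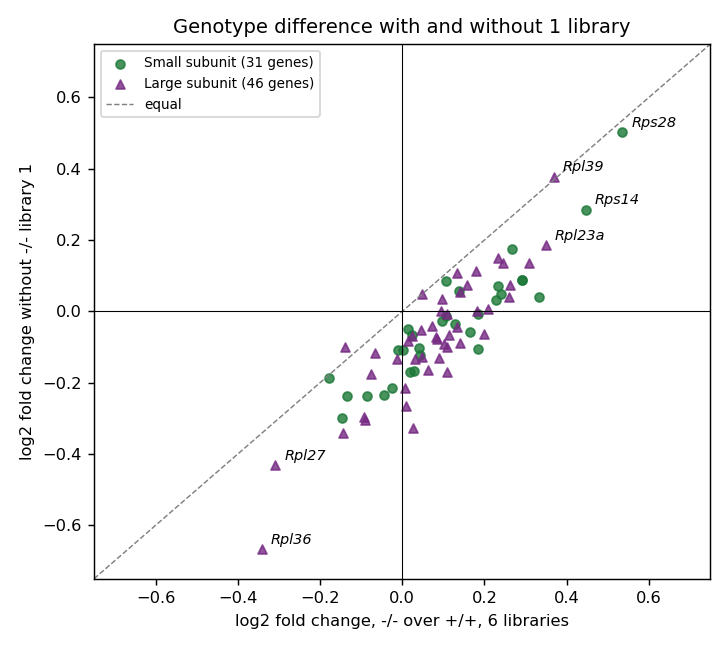
Log2 fold change of miRNA-26b-/- over miRNA-26b+/+ for the 77 tested members with all 6 libraries (horizontal axis) and without knockout 1 (vertical axis), as circles for the small and triangles for the large subunit, with the dashed line where they are equal. Nearly all points lie below the line, and the medians go from 0.11 to -0.05 in the small and from 0.09 to -0.07 in the large subunit, while Rps28 and Rpl39 stay close to it.

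Members at the stalk gave small differences. Rplp1, a stalk protein, read 621, 487 and 566 CPM in knockouts and 489, 505 and 524 CPM in wild types, and its partner Rplp2 read 280, 240 and 221 CPM against 233, 228 and 271 CPM. The log2 fold changes were 0.14 ± 0.13 for Rplp1, 0.02 ± 0.15 for Rplp2 and -0.07 ± 0.13 (SE) for Rplp0. The groups overlapped in all 3 stalk genes.

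Rpl5 and Rpl11, which with 5S rRNA form the particle that binds Mdm2 when ribosome assembly is disturbed, both had a log2 fold change of 0.11. Rpl5 read 275, 168 and 165 CPM in knockouts and 184, 191 and 187 CPM in wild types, and Rpl11 read 207, 153 and 178 CPM against 164, 152 and 182 CPM. Knockout 1 was the highest library in both, and knockouts 2 and 3 lay under all wild types in Rpl5. Over 12 p53 and nucleolar stress genes, 0 passed an unadjusted p of 0.05.

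Rps19, mutated in Diamond-Blackfan anaemia, read 129, 98.8 and 71.3 CPM in knockouts and 78.2, 98.5 and 90.0 CPM in wild types, and Rps26, a 40S protein at the mRNA exit, read 99.9, 98.6 and 93.2 CPM against 98.1, 92.6 and 80.3 CPM. Rpl38, needed for translation of certain Hox mRNAs in the embryo, read 53.7, 31.6 and 43.6 CPM against 41.5, 33.4 and 31.3 CPM. Rpl13a, which leaves the ribosome in interferon-treated myeloid cells to act on mRNAs, read 483, 289 and 313 CPM against 327, 301 and 314 CPM, and Rpl32, a common reference gene, read 158, 144 and 115 CPM against 148, 117 and 139 CPM. In these 5 genes the groups overlapped, and adjusted p ran from 0.905 in Rpl13a to 0.989 in Rpl32 by edgeR.

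Members lay on 19 chromosomes, with 14 on chromosome 7 and 4 on the X chromosome. Of the X-linked genes, Rpl10, a protein added late to the 60S subunit, read 314, 212 and 212 CPM in knockouts and 245, 261 and 279 CPM in wild types, with a log2 fold change of -0.09 that became -0.30 with an unadjusted p of 0.0606 without knockout 1. Rps4x read 310, 248 and 222 CPM against 230, 235 and 292 CPM, and Rpl36a read 115, 105 and 90.3 CPM against 93.0, 85.8 and 99.2 CPM. The groups overlapped in these 3, unlike in Rpl39.

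Although ribosomes hold most of these proteins in equal numbers, their mRNA counts differed widely. Mean CPM per kb of exon ranged from 18.0 in Rpl35a to 1066 in Rplp1, with a median of 97.3 in the small and 79.2 in the large subunit. The highest levels per kb were those of Rplp1, Rpl4 (361) and Rpl8 (283) in the large subunit and Rps15 (454), Rps29 (269) and Rps21 (226) in the small subunit. The lowest were those of Rpl35a, Rpl39 (25.5) and Rpl27 (26.1), and of Rps28 (19.7), Rps19 (20.1) and Rps10 (27.5).

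Rpl27, low in level, read 41.9, 24.1 and 42.1 CPM in knockouts and 39.1, 39.7 and 53.2 CPM in wild types, so that knockout 2 lay far under the others. Rpl4 read 799, 701 and 615 CPM against 732, 709 and 787 CPM, and Rps15 read 381, 246 and 288 CPM against 260, 248 and 295 CPM. The order of members by level depends on the length used, since the files sum all annotated exons of a gene, retained introns included. On the principal transcript alone Rps19 stood at 134 CPM per kb and Rpl35a at 124, and the range was 38.8 to 1066. Rows named as pseudogenes of these genes, 300 in all, held between 0.622% and 0.788% as many counts as the members, and reads that fit a gene and its copies equally well cannot be told apart, so levels of members with many copies are uncertain. Exons of 37 members also overlap another gene, among them snoRNA genes such as Snord21 in Rpl5.

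Of the genes around the module, 9 of 339 tested (2.65%) passed an unadjusted p of 0.05, under the 6.46% of all genes, 6 higher and 3 lower in the knockout, and 0 passed an adjusted one. Of these 9, only Pdcd4 passed the unadjusted threshold in each of the 6 fits that left out 1 library. Among 25 translation factors and other known TOP mRNAs, only Eif3e, a subunit of the initiation factor eIF3, passed. It read 142, 105 and 118 CPM in knockouts and 102, 93.4 and 68.3 CPM in wild types, with a log2 fold change of 0.46 ± 0.19 (SE) and an adjusted p of 0.736 by edgeR. It was 0.30 without wild-type 3 and 0.34 without knockout 1, with unadjusted p of 0.141 and 0.122. The list's median log2 fold change was 0.02, and its median deviation in knockout 1 was 0.10, against 0.32 in each of the ribosomal subunits.

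Of 87 ribosome biogenesis factors, Imp4, a component of the small subunit processome, was higher, with 38.3, 30.9 and 46.6 CPM in knockouts against 24.3, 25.5 and 26.1 CPM, and Naf1, an assembly factor of H/ACA snoRNPs, was lower, with 11.1, 14.9 and 19.9 CPM against 23.6, 24.2 and 25.05 CPM. The groups did not overlap in either gene, with an adjusted p of 0.736 for Imp4 and 0.746 for Naf1 by edgeR. The list's median log2 fold change was -0.05, with 35 genes above 0 and 52 below. Of 7 dedicated ribosomal protein chaperones, Grwd1, which carries Rpl3, was lower at 10.2, 7.60 and 9.64 CPM against 15.6, 12.2 and 18.5 CPM, with an adjusted p of 0.756 by edgeR. By DESeq2 neither Grwd1 nor Naf1 passed, with unadjusted p of 0.0727 and 0.0642.

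Among 40 tested genes of the mTORC1 and LARP1 pathway, Pdcd4, an inhibitor of the helicase eIF4A, was higher, with 50.8, 40.3 and 38.9 CPM in knockouts against 29.3, 23.6 and 21.6 CPM. Its log2 fold change was 0.79 ± 0.23 (SE), with an unadjusted p of 0.00394 and an adjusted p of 0.731 by edgeR. Eif4g1, the scaffold of the cap-binding complex, was lower, with 307, 335 and 427 CPM against 407, 503 and 499 CPM and an adjusted p of 0.736 by edgeR. The remaining 38 genes did not pass.

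Of the 6 paralogues tested, 5 had a log2 fold change above 0, with a median of 0.25. Rpl3l was at 0 counts in all 6 libraries, and Rpl10l and Rpl39l, known from testis, were listed above 0 in 1 wild-type library each. Rpl22l1, the paralogue of Rpl22, read 33.5, 43.9 and 26.9 CPM in knockouts and 34.7, 29.5 and 21.6 CPM in wild types. Rps27l, a p53 target, read 31.8, 35.4 and 23.8 CPM against 32.3, 24.3 and 18.0 CPM, Rpl36al read 20.2, 18.4 and 14.5 CPM against 23.6, 14.9 and 31.5 CPM, and Rpl7l1 read 61.9, 67.1 and 70.5 CPM against 69.3, 37.8 and 61.3 CPM. Rps4l and Rps27rt stayed under 16 CPM, and 0 of the 6 passed an unadjusted p of 0.05.

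The ribosome of the mitochondrion is made of other proteins. Over 78 mitochondrial ribosomal protein genes the median deviation was 0.10 in knockout 1, 0.12 in knockout 2 and -0.23 in knockout 3, and over 74 nuclear-encoded respiratory chain genes with counts in all libraries 0.17, 0.27 and -0.33. By these medians knockout 2 was highest in both lists, but 25 of the 78 mitochondrial genes were highest in knockout 1 and 15 in knockout 2, and their summed level was 1943 CPM in knockout 1 and 1904 CPM in knockout 2, so for them the order of these libraries depends on the measure. A single gene passed in each, Mrps11 of the mitochondrial small subunit and Ndufs6 of complex I. Mrps11 read 17.5, 18.6 and 11.7 CPM in knockouts and 5.74, 9.62 and 8.74 CPM in wild types, and Ndufs6 had a log2 fold change of 0.49 ± 0.23 (SE), with adjusted p of 0.736 and 0.763 by edgeR. Of 8 tested protein genes of mitochondrial DNA, mt-Nd6 passed at 0.56 ± 0.22 (SE), with an adjusted p of 0.736 by edgeR. It was 0.32 without wild-type 3, with an unadjusted p of 0.159, and did not pass by DESeq2 (unadjusted p of 0.103) or with robust shrinkage in edgeR (unadjusted p of 0.123).

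**Figure D5:**
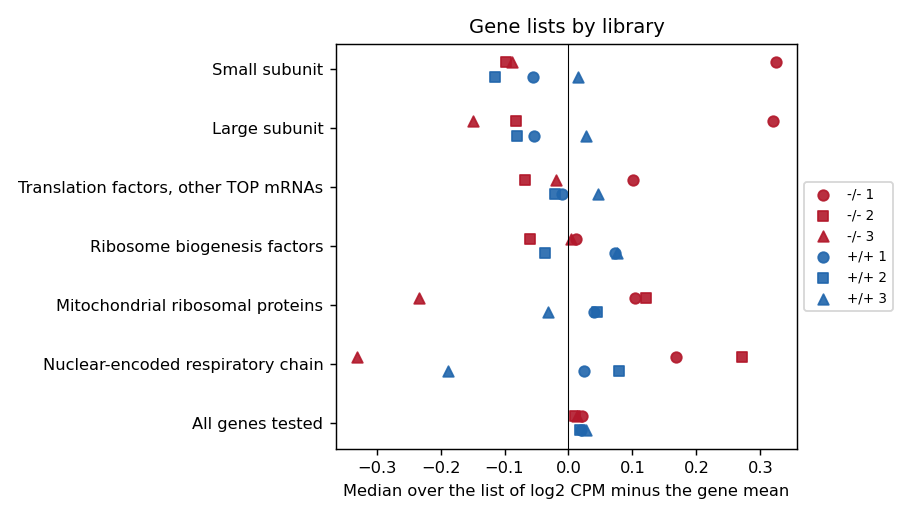
Median over each gene list of log2 CPM minus the gene's mean over the 6 libraries (horizontal axis), 1 point per library, red for miRNA-26b-/- and blue for miRNA-26b+/+ libraries. The small and large cytosolic subunits both stand at 0.32 in knockout 1 and the translation factors at 0.10. The mitochondrial ribosomal proteins stand at 0.10 in knockout 1 and 0.12 in knockout 2.

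Members with and without the TOP tract at the RefSeq start were set side by side. The 13 with the tract had a median log2 fold change of 0.09, from -0.14 to 0.33, and the 44 with a start and no tract a median of 0.09, from -0.31 to 0.54. In knockout 1 against the wild types their medians were 0.46 and 0.32. These are descriptions, with no test over the sets.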

How the data were processed

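Total RNA of the aortic arch and thoracic aorta was sequenced from polyA-selected TruSeq v2 libraries. The authors aligned the reads to GRCm38/mm10 with STAR and deposited whole-number counts per gene, made with featureCounts 1.6.4 (Subread), whose file header names GENCODE M21. The methods name another release, and the header was followed. A second deposited table, of normalized CPM values with the authors' own comparison, was not used. Per-sample columns left unmapped numbered 0.

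A gene was tested if its counts summed to at least 2 and at least 2 libraries exceeded 1 CPM, which held for 16017 of 55341. Counts were scaled by TMM and tested with edgeR 4.0.16 (glmQLFit and glmQLFTest, prior count 0.125, R 4.3.3), 3 against 3 libraries, with Benjamini-Hochberg adjustment over all genes tested. P-values measure the spread between 1 library per mouse. An exact permutation test of 3 against 3 cannot give a two-sided p under 0.1, so none was run. The scripts were tested on simulated data. DESeq2 1.42.0, limma 3.58.1 (voom), other scalings, filters and edgeR tests, and each library left out were tried. Libraries of 1 group differed by more than sampling noise (chi-square per degree of freedom of at least 45.1), so none was a copy of another in its group. That check cannot tell separate libraries of the same mouse from libraries of different mice. Numbers in the library names pair no samples.

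The members and lists were chosen with earlier results of these data known. Named were, per subunit, the 6 tested members with the smallest p and the 3 highest and 3 lowest in mean CPM per kb of exon, the stalk, laminin receptor and X-linked members, Rps6, Rpl5, Rpl11, Rps19, Rps14, Rpl38, Rps26, Rpl13a and Rpl32, all paralogues, and at most 4 genes of each list with p under 0.05. Others (Rps7, Rps12, Rps16, Rps20, Rps24, Rps27a, Rpl10a, Rpl14, Rpl19, Rpl30, Rpl35, Rpl37 and Rpl37a) were named after their values were seen. Sequences are from RefSeq tables of GRCm38.p6, and 3′ UTRs from the principal transcripts of GENCODE M21. A few genes that the rule would name are not reported here, though they are in all counts and medians. No set test was made.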

Additional observations from a re-analysis of the deposited data

How the results depend on the processing

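Leaving out 1 library in turn moved the number of genes under an unadjusted p of 0.05 from 686 (without wild-type 3) to 1692 (without knockout 3), that of ribosomal protein genes from 0 (without wild-type 2) to 7 (without knockout 3), and that of the surrounding lists from 4 to 34. The ribosomal protein count was 1 without knockout 1, without wild-type 1 and without wild-type 3, and 1 under the likelihood ratio test, which lost Rps14. DESeq2 called 5 genes of the surrounding lists and did not call Grwd1, Naf1, mt-Nd6 or Ndufs6, the last with an unadjusted p of 0.0641. The cause of these changes was not tested. The medians ran from -0.05 to 0.15 (small subunit) and from -0.07 to 0.17 (large), below 0 only without knockout 1, and from 0.10 to 0.12 and from 0.07 to 0.11 under the 10 other settings. The mean share in knockouts ran from 1.34% to 1.54% when a library was left out, an alternative chosen after seeing the data. No named fold change with an unadjusted p under 0.05 changed sign. With 3 mice per group and a median standard error of 0.17 on the log2 scale, small differences in single members could not be detected. No paired analysis was possible because the labels give the groups no shared replicate numbers.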
